A study of Mchenga conophoros and Petrotilapia sp. 'chitimba' with 16 samples.

Results

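The 5 genes described here encode neuropeptide precursors and were measured in the brains of 8 adult male cichlid fish: npy (neuropeptide Y), cck (cholecystokinin), gnrh1 and gnrh2 (gonadotropin-releasing hormones) and rln3 (relaxin 3). They were chosen by name, with earlier results of these data known. Each symbol had 1 assembled locus that matched its annotated gene exactly, so the 5 genes are 5 of 61384 loci in the deposited count table. The fish were 4 Petrotilapia sp. 'chitimba' (PC) and 4 Mchenga conophoros (MC), species that differ in how aggressively they respond to a mirror according to the series. In each species, 2 fish were shown a mirror for 15 min, in their own tank (PC fish 12 and 23, MC fish 9 and 21) and 2 were controls (PC fish 11 and 24, MC fish 10 and 22). The whole brain of every fish was taken at 90 min and gave 2 libraries, an immunoprecipitate (IP) of ribosomes carrying phosphorylated ribosomal protein S6 (pS6) and the total RNA before it (input). Phosphorylation of S6 follows neuronal activity, and the method, PhosphoTRAP, is meant to enrich transcripts of recently active neurons. Batch a held fish 9, 10, 11 and 12 and batch b fish 21, 22, 23 and 24, so each batch had 1 fish of every species and condition.

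Neuropeptides are cut from larger precursors in the secretory pathway, stored in vesicles and released to act on G protein-coupled receptors. Neuropeptide Y stimulates feeding in fish and in mammals, and cholecystokinin acts as a satiety signal in both. GnRH1 neurons of the preoptic area drive the release of gonadotropins from the pituitary, and in the cichlid Astatotilapia burtoni they change with social rank. GnRH2 is made by a small group of midbrain neurons, and relaxin 3 in mammals mainly by neurons of the nucleus incertus, where its receptor is RXFP3. Because such genes can be made by few cells, a whole brain library samples them through a small share of its RNA.

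The loci lay on separate sequences of the reference used by the authors, whose build is not named in the sources used here. On these coordinates npy was on the minus strand of NC_036800.1 from 20063475 to 20065432, and cck on the plus strand of NC_036790.1 from 8860674 to 8865540. The gnrh1 locus was on the minus strand of NC_036791.1 from 9418035 to 9418735, and gnrh2 on the plus strand of NC_036784.1 from 10834443 to 10835906. The rln3 locus was on the minus strand of NC_036785.1 from 29184448 to 29185144, where 55 bp overlapped rfx1 on the other strand. Whether the counting used strand is not stated, so reads in that overlap cannot be assigned with certainty. A run-on fragment next to cck and another next to gnrh1 were counted as loci of their own, with at most 8 and 16 counts in any input library and 0 in IP.

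The libraries of the fractions differed in depth and in how many loci they held. IP libraries had 1872019 to 11186928 counts and detected 3714 to 10466 loci, and input libraries had 10073251 to 23594320 counts and detected 30469 to 34760. The inputs of both PC mirror fish (12 and 23) were the deepest, at 22058698 and 23594320 counts. A count of 0 allows a level of up to 0.268 to 1.60 CPM (counts per 1e6 of the library total) for IP and 0.127 to 0.298 CPM for input, taking 3 counts as the floor. Such floors and bounds cover counting error only. The brain label fitted the libraries, in which the 4 measured neuronal markers (snap25, syt1, nefl and nefm) summed to 1837 to 3238 CPM in PC inputs and 3045 to 4112 CPM in MC inputs.

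All 5 genes were higher in PC than in MC brains in total RNA. The differences ranged from cck, at a fitted 2.39-fold, to rln3, which had counts in every PC input and in no MC input. Fitted folds rest on TMM scaling, whose factors were lower in every PC input than in any MC input, which raises PC over MC. Ratios of pooled CPM without that scaling were smaller, at 1.86 for cck, 3.42 for npy and 5.66 for gnrh1. Over all 28742 loci tested in the input libraries, 8.16% were called higher in PC and 2.28% lower (edgeR quasi-likelihood test, adjusted p under 0.05 by Benjamini-Hochberg over all loci), and the median log2 fold change was 0.03. The genes were chosen with earlier results of these data known, so these shares are a background and not a test of the 5. In bulk RNA, fewer cells that make a peptide and less RNA per cell cannot be told apart. Both species were counted on the same loci. How well the reads of each species map to them was not examined, which also limits what 0 counts in MC can show.

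The npy transcript, from neurons that in vertebrates include hypothalamic feeding circuits, had 207 and 276 CPM in the inputs of PC mirror fish and 131 and 240 CPM in those of PC control fish. It had 47.8 and 29.99 CPM in MC mirror fish and 47.7 and 142 CPM in MC control fish. The MC library of control fish 22 reached into the range of the PC fish, and the other 3 MC inputs lay below every PC input. The means were 214 ± 61.9 CPM in PC and 66.8 ± 50.7 CPM in MC (SD, n = 4 each). The log2 fold change was 2.13 ± 0.31 (SE, edgeR adjusted p = 0.00352). The group means were 242 ± 49.3 CPM in PC mirror, 186 ± 77.0 CPM in PC control, 38.9 ± 12.6 CPM in MC mirror and 94.8 ± 66.6 CPM in MC control fish (SD, n = 2 each). Ranked by mean, each group overlapped its neighbour.

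The cck transcript, which encodes a peptide of cortical and hypothalamic neurons in mammals as well as of the gut, had 89.7 and 64.6 CPM in PC mirror inputs and 67.6 and 124 CPM in PC control inputs. It had 42.0 and 39.0 CPM in MC mirror inputs and 49.3 and 49.5 CPM in MC control inputs. Every PC fish was above every MC fish, and the MC fish lay close together. The means were 86.4 ± 27.3 CPM in PC and 45.0 ± 5.31 CPM in MC (SD, n = 4 each), with a log2 fold change of 1.26 ± 0.22 (SE, edgeR adjusted p = 0.00781). With scaling by library totals, under which the median of all loci moved to -0.31, the fold change was 0.93 and the adjusted p 0.0598 (edgeR). PC mirror and PC control fish overlapped. In MC both mirror fish were below both control fish. The 95% exact Clopper-Pearson interval of mirror fish 9 (38.1 to 46.1 CPM) overlapped those of control fish 10 (45.2 to 53.7 CPM) and 22 (45.3 to 54.1 CPM). That of mirror fish 21 (35.4 to 42.9 CPM) lay below both. How many loci had such an order was not determined, and so few fish per group cannot show a mirror effect by order alone.

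The gnrh1 transcript, made in vertebrates by neurons that control the pituitary and gonads, had 12.7 and 15.8 CPM in PC mirror inputs and 13.7 and 14.5 CPM in PC control inputs. It had 1.63 and 5.87 CPM in MC mirror inputs and 0.469 and 1.99 CPM in MC control inputs. The 4 PC fish were nearly alike, at 14.2 ± 1.30 CPM (SD, n = 4), while the MC fish ranged widely around 2.49 ± 2.35 CPM (SD, n = 4). No PC fish overlapped an MC fish. The log2 fold change was 3.31 ± 0.52 (SE, edgeR adjusted p = 0.00454). The lowest MC value, in control fish 10, rested on 5 counts, with a 95% exact Clopper-Pearson interval of 0.152 to 1.09 CPM. The highest MC value, in mirror fish 21, had an interval of 4.52 to 7.49 CPM. It lay below the interval of the lowest PC value, 11.3 to 14.3 CPM in mirror fish 12. These intervals cover counting error only.

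The gnrh2 transcript, made in vertebrates by midbrain neurons that project widely in the brain, had 3.13 and 5.21 CPM in PC mirror inputs and 3.66 and 6.56 CPM in PC control inputs. It had 0 counts in both MC mirror inputs, against 16 and 25 counts in MC control inputs, where 25 counts are 2.48 CPM. The PC fish were all above the MC fish. The means were 4.64 ± 1.56 CPM in PC and 0.996 ± 1.22 CPM in MC (SD, n = 4 each). The pooled counts of the species, 312 in PC and 41 in MC, gave a ratio of 4.66, and the species difference had an edgeR adjusted p of 0.0125. No fitted fold is given, because a group of libraries at 0 leaves it to the prior.

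The rln3 transcript had 38 and 91 counts in PC mirror inputs (1.72 and 3.86 CPM), 5 and 23 counts in PC control inputs (0.457 and 1.89 CPM), and 0 counts in all 4 MC inputs. A count of 0 allowed up to 0.275 to 0.298 CPM in the MC inputs, which is below the level of every PC input. The lowest PC value, in control fish 11, rested on 5 counts. Its 95% exact Clopper-Pearson interval of 0.148 to 1.07 CPM reaches below these limits, so counting error does not separate that fish from MC. Pooled over fish, rln3 was at least 32.0-fold higher in PC than the level that 3 counts over the 4 MC inputs would give. The edgeR adjusted p was 0.0494. That call ended without PC mirror fish 23 (adjusted p = 0.188, edgeR), PC control fish 24 (0.0597), MC control fish 10 (0.0753) or MC control fish 22 (0.0914), and under relative log expression size factors (0.0515) or library totals (0.071).

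**Figure D1:**
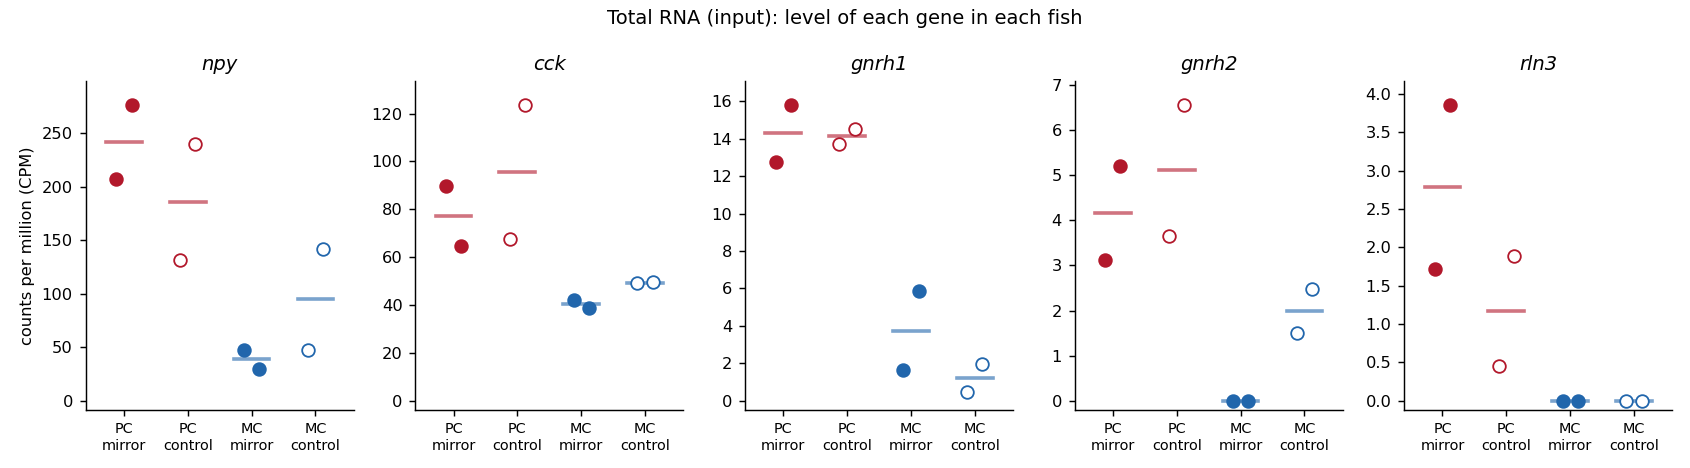
Level of each gene in the total RNA (input) of each fish, in CPM on linear axes that differ between panels. Each point is 1 fish, filled for mirror and open for control, and bars are group means (n = 2); npy reaches 276 CPM in PC mirror fish, and rln3 is at 0 in the 4 MC fish.

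The fold changes of npy, cck and gnrh1 had the same direction in each batch, but most calls needed the 8 inputs fitted together and apart from the IP libraries. In batch a alone, npy was still called (log2 fold change 2.05, edgeR adjusted p = 0.0328) and rln3 was too low to be tested, while cck (log2 fold change 1.04, edgeR adjusted p = 0.144), gnrh1 (4.07, 0.0621) and gnrh2 (0.409) were not. In batch b alone no locus passed adjustment (edgeR; 2880 had an unadjusted p under 0.05), and the log2 fold changes were 2.31 for npy (edgeR adjusted p = 0.335), 1.36 for cck (0.312) and 2.46 for gnrh1 (0.312), with adjusted p of 0.488 for gnrh2 and 0.355 for rln3. A fit of all 16 libraries, which shares 1 estimate of spread between input and IP, called 0 loci, with 2068 at an unadjusted p under 0.05. In it the log2 fold changes were 1.81 for npy (edgeR adjusted p = 0.718), 0.96 for cck (adjusted p = 1) and 3.09 for gnrh1 (adjusted p = 0.69), and the adjusted p was 0.722 for gnrh2 and 0.684 for rln3.

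Of the enzymes that cut and trim peptide precursors, some were lower in PC. Of 13 listed, 7 had a locus and were tested. Of these, 0 were called higher and 2 were called lower in PC, against 8.16% and 2.28% of all loci tested. The median log2 fold change of the 7 was -0.41 against 0.03 over all loci. It was positive for 2 of them, pcsk7 (0.77 ± 1.02 SE) and cpd (0.20 ± 0.31 SE), which were not called. Carboxypeptidase E (cpe), which removes basic residues from peptide ends, averaged 159 ± 18.1 CPM in PC and 445 ± 39.7 CPM in MC inputs (SD, n = 4 each; log2 fold change -1.15 ± 0.16 SE, edgeR adjusted p = 0.00254). Prohormone convertase 1 (pcsk1) averaged 25.1 ± 7.49 CPM in PC and 66.8 ± 18.7 CPM in MC inputs (SD, n = 4 each; -1.08 ± 0.23, edgeR adjusted p = 0.018). For both enzymes the species did not overlap, with cpe at 134 to 177 CPM in PC against 395 to 478 CPM in MC, and pcsk1 at 15.7 to 33.3 CPM in PC against 39.2 to 80.7 CPM in MC. The related convertase pcsk2 did not pass, with a log2 fold change of -0.82 ± 0.27 (SE, edgeR adjusted p = 0.0938).

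Of 57 other neuropeptide precursors listed, 21 had an exact locus and 16 were tested. None was called by edgeR, with 5 at an unadjusted p under 0.05, and 15 of the 16 had a positive log2 fold change, against 50.9% of all loci. Both shares rest on TMM scaling. Its factors were lower in every PC input than in any MC input, which raises PC over MC. Mean CPM was lower in PC for tac1 (14.1 against 18.3 in MC), vip (4.58 against 5.59) and nppc (2.23 against 2.53). It was higher in PC for the rest of the 16. Fold changes with library totals were not fitted for these genes. The median log2 fold change of the 16 was 1.54, or 1.05 with the 3 genes that had a group of libraries at 0 set to their pooled ratio or bound. The smallest adjusted p belonged to spx (spexin), at 0 in all MC inputs (edgeR adjusted p = 0.0587), pdyn (prodynorphin, 1.94 ± 0.68 SE, 0.113) and trh (thyrotropin-releasing hormone, 2.60 ± 0.92 SE, 0.117). Of receptors, no listed NPY or GnRH receptor symbol had an exact locus. The relaxin family receptors rxfp1 and rxfp2 were tested and not called, with log2 fold changes of 0.21 ± 0.81 and 1.02 ± 1.42 (SE, edgeR adjusted p = 0.908 and 0.697). The relaxin 3 receptor rxfp3 had 0 to 25 counts in PC inputs and 0 counts in all MC inputs, and the CCK receptor cckar 0 to 31 counts in PC inputs and 0 to 2 counts in MC inputs; both were too low to be tested.

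**Figure D2:**
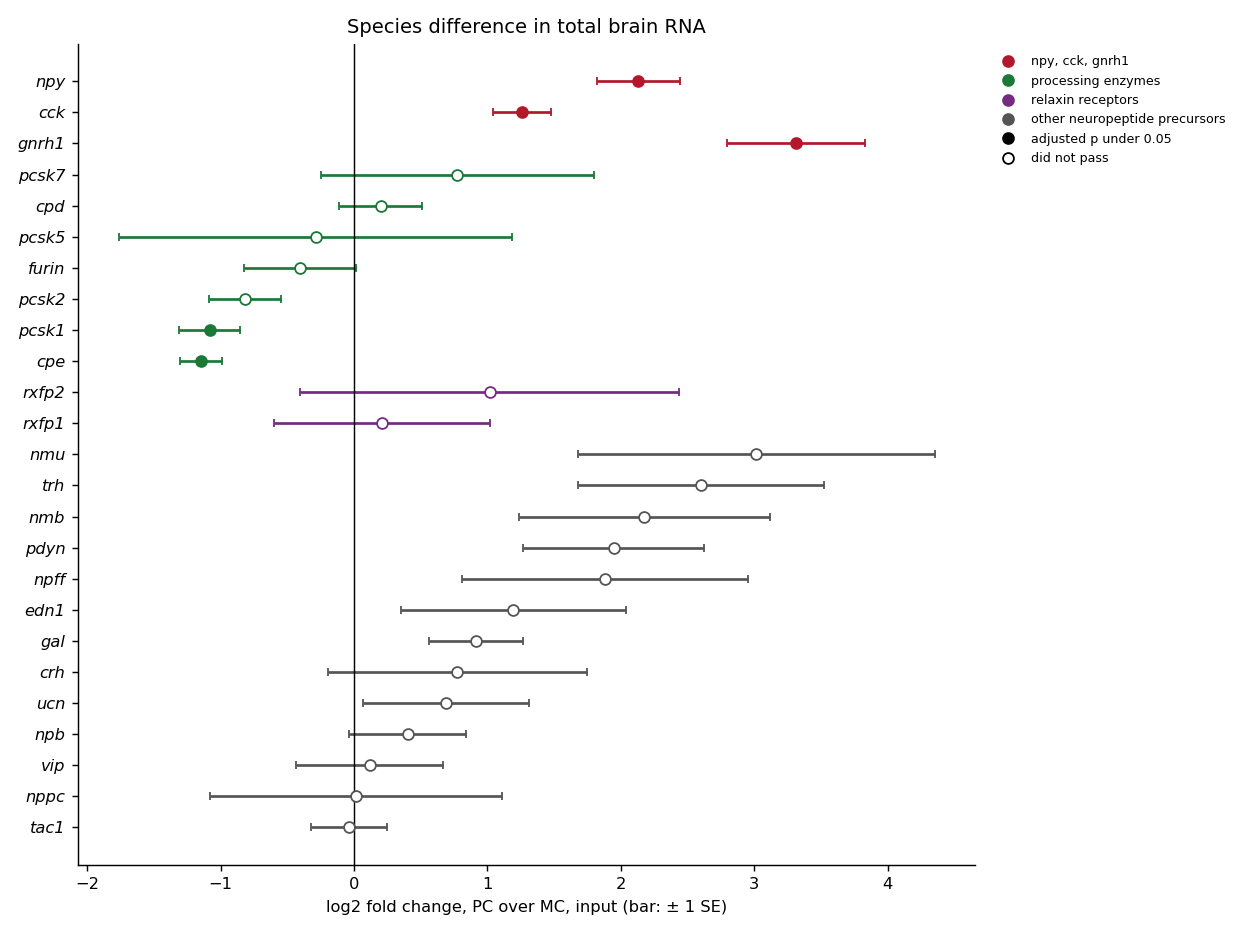
Log2 fold change of PC over MC in input (x axis, with 1 SE) for npy, cck and gnrh1 and for the tested members of 3 gene lists; filled points have an adjusted p under 0.05, and genes with a group of libraries at 0 (gnrh2, rln3 and 3 precursors) are not drawn. The 3 neuropeptide genes lie between 1.26 and 3.31, and cpe and pcsk1 at -1.15 and -1.08.

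Markers of other brain cells also differed between the species in input. None of the 4 neuronal markers was called. Of 4 radial glia and astrocyte markers tested, fabp7 (log2 fold change 1.73 ± 0.15 SE) and s100b (1.33 ± 0.14) were called higher in PC (edgeR adjusted p = 0.000684 and 0.000908), while slc1a2 and sox2 had -0.74 ± 0.26 and -0.04 ± 0.23 and did not pass. The summed level of the list was 6556 to 10971 CPM in PC and 4408 to 5778 CPM in MC. Of 4 oligodendrocyte markers, mag was called lower (-1.01 ± 0.18 SE, edgeR adjusted p = 0.00905). The others did not pass, with mpz at -0.90, olig2 at 0.03 and cnp at 0.82, and the list had a summed level of 187 to 708 CPM in PC and 895 to 1186 CPM in MC. Of 4 microglial markers, srgn was called higher (1.38 ± 0.25 SE, edgeR adjusted p = 0.01). The others did not pass, with csf1r at -0.55, cd74 at -0.38 and mpeg1 at 2.42, and the list had a summed level of 436 to 799 CPM in PC and 534 to 676 CPM in MC. Pituitary tissue left on a brain would add its hormones; the 1 with a locus, cga, had 0 to 232 CPM in PC and 0 to 279 CPM in MC inputs and was not called. No red blood cell marker had a locus, and of 2 photoreceptor and pineal genes tested none was called, at summed levels of 1.90 to 6.40 CPM in PC and 0.397 to 6.38 CPM in MC. The part of cell makeup in the species difference of the 5 genes was not tested.

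Of the tested loci around the genes, 0 were called higher and 1 lower in PC, against 8.16% and 2.28% of all loci tested. So few loci cannot show a departure from these shares. Within 15000 bp of the 5 genes lay 12 matched loci, of which 10 were tested with a median log2 fold change of -0.20. The 1 called lower was ptpra (a receptor-type tyrosine phosphatase), which lies 1533 bp from gnrh2 (-1.35 ± 0.36 SE, edgeR adjusted p = 0.0489). The overlapping rfx1 beside rln3 had a log2 fold change of -1.72 ± 1.25 (SE, edgeR adjusted p = 0.419).

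Many other loci followed the same profile over the 8 inputs. By Pearson's r of log2 CPM over 6658 named loci (6659 for gnrh2), the closest to npy were tma7 (r = 0.995), znf414 (0.994) and tkt (0.993), among 593 loci with r above 0.9. The closest to cck were ift57 (0.980), ppp1r8 (0.975) and gulp1 (0.970), among 319. For gnrh1 they were znf410 (0.986), ak1 (0.977) and rbm42 (0.975), among 143, and for gnrh2 tmem97 (0.991) and ndufaf8 (0.991), among 365. For cck, gnrh1 and gnrh2 the 8 points split into PC and MC fish. For npy, MC control fish 22 (142 CPM) lay within the PC range, apart from the other MC fish. The points also share library depth, so these values describe a profile and carry no test.

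The 5 genes differed in how often the IP libraries held them. Transcripts of npy were recovered in 7 of 8 fish, gnrh1 in the 4 PC fish, cck in the 2 PC control fish, gnrh2 in 2 mirror fish and rln3 in none. The IP libraries held few loci in general, and 57.4% of 29597 loci were called lower in IP than in input (edgeR, 16 libraries, median log2 fold change -4.97), with 98 called higher. Of the 5 genes, 3 (npy, cck and gnrh1) were called lower, a share close to that of all loci. That fit has no term for the fish, although IP and input come from the same fish. With the fish as a block, 173 of 29597 loci were called lower in IP, cck among them but not npy or gnrh1. The fit without the block averages log levels over the groups, so groups at or near 0 weigh heavily. Counts pooled over fish gave the other direction for npy, at 271 CPM in IP and 164 CPM in input (ratio 1.65), and for gnrh1, at 24.9 CPM in IP and 9.80 CPM in input (ratio 2.54). These pooled values rest largely on the deepest IP library, that of PC mirror fish 23. It gave 8510 of 14163 npy and 907 of 1301 gnrh1 counts in IP. In MC alone the pooled ratio of npy was 0.526, and gnrh1 had 0 counts in IP. For cck the pooled levels were 8.47 CPM in IP and 68.9 CPM in input.

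In IP, npy had 245 and 761 CPM in PC mirror fish and 84.2 and 607 CPM in PC control fish. It had 0 and 1.203 CPM in MC mirror fish (0 and 11 counts) and 86.2 and 59.3 CPM in MC control fish. In all, 3 of 4 PC fish and 1 of 4 MC fish had more npy in IP than in their own input. The share of all loci with more in IP than in input was not determined per fish. The ratios of IP to input CPM were 1.18 and 2.75 in PC mirror fish and 0.642 and 2.53 in PC control fish, against 0 and 0.0401 in MC mirror fish and 1.81 and 0.418 in MC control fish. As a log2 ratio with a pseudocount of 1 CPM the 8 fish averaged -1.31 ± 2.53 (SD, n = 8), with 5 of 8 below 0 (exact sign-flip permutation test, two-sided, p = 0.227; the smallest possible is 0.00781). The edgeR fit gave -1.73 ± 0.61 (SE, adjusted p = 0.0312), a call that ended with the fish as a block (-1.81, adjusted p = 0.172, edgeR) and in 15 of the other 19 alternatives. Without MC mirror fish 9 the fold change was -1.204 and not called, and without MC mirror fish 21 it was -2.84, the only fit leaving out 1 fish that kept the call. Fits leaving out 1 fish also tested 39059 to 42829 loci, since the filter follows the smallest group, and with all fish and no filter the npy call ended too (adjusted p = 0.105, edgeR), so its loss cannot be put down to the fish alone.

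In the IP libraries cck was at 0 counts in both PC mirror fish and in all 4 MC fish, and at 40.6 and 37.6 CPM (283 and 160 counts) in PC control fish. At its input level, cck would have given 621 and 723 counts in the PC mirror IP libraries and 78.6 to 459 counts in the MC ones. The control fish that kept it still had less in IP than in input, with ratios of 0.600 and 0.304. Over the 8 fish cck was called lower in IP (edgeR adjusted p = 0.00124; 0.0141 with the fish as a block), and in MC it was at least 344-fold lower than in input. The call was not made in batch a alone (0.192), batch b alone (0.186) or without both MC fish of batch a (0.0566). Recovery at this level was often partial. Of loci at 30 to 100 CPM in PC input, 56.8% to 87.6% had counts in any 1 PC IP library. Of the same loci, 42.3% had counts in all 4 libraries and 0.901% in none. The rest had counts in some but not all of them, as cck did. How many of those had counts in the control fish alone was not determined. Of loci at 30 to 100 CPM in MC input, 33.6% to 71.7% had counts in any 1 MC IP library and 11.4% in none, cck among them.

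By contrast, gnrh1 had 27.3 and 81.1 CPM in IP of PC mirror fish and 9.18 and 33.2 CPM in IP of PC control fish, and 0 counts in the 4 MC fish. Its ratio to the input of the same fish was 2.14 and 5.13 in PC mirror fish and 0.670 and 2.28 in PC control fish. So 3 of 4 PC fish were above their input, and all 4 PC libraries held the transcript. The share of all loci above their own input was not determined. Of loci at 10 to 30 CPM in PC input, 29.9% to 55.3% had counts in any 1 PC IP library and 12.2% in all 4. The pattern was not particular to gnrh1. Alone among the other precursors tested, nmb also had counts in all 4 PC IP libraries (51.0 to 175 CPM). Its mean in PC input was 14.5 CPM, and it had 0 counts in the MC IP libraries. In MC the input level would have given 3.04, 53.7, 1.27 and 18.4 counts in the IP libraries of fish 9, 21, 10 and 22. The 0 counts of fish 10 and 9 therefore say little at this depth. The MC input mean of gnrh1 was 2.49 CPM. Of loci at 1 to 3 CPM in MC input, 3.56% to 9.88% had counts in any 1 MC IP library and 80.8% in none. Absence from the MC IP libraries was thus common at this level. Over all 8 fish gnrh1 was called lower in IP (edgeR adjusted p = 0.0141), although 3 of 4 PC fish had more of it in IP and the pooled counts were 1301 in IP and 1087 in input. That call ended with the fish as a block (0.287) and in 7 of 8 fits that left out 1 fish, all but MC mirror fish 9 (adjusted p up to 0.12, without MC control fish 22). With all fish and no filter it ended as well (0.0517), so here too the fish and the number of loci tested cannot be told apart.

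The gnrh2 transcript had 15.2 CPM (105 counts) in the IP library of PC mirror fish 12 and 75.0 CPM (686 counts) in that of MC mirror fish 21, and 0 counts in the other 6. Fish 21 had 0 gnrh2 counts in its input. In that fish 1022 of 8814 loci detected in IP (11.6%) had 0 counts in input, 131 of them with at least 500 counts in IP, and the other fish had 5.04% to 7.63%. The rln3 transcript had 0 counts in all 8 IP libraries. At input level the PC fish would have given 3.19 to 43.1 counts, and pooled over PC fish rln3 was at least 22.3-fold lower in IP than in input. Neither gnrh2 nor rln3 was called in IP against input (edgeR adjusted p = 1 for both). Both had groups at 0 in input as well as in IP, so the fit could not test them. The missing call therefore says nothing about their levels. At 1 to 3 CPM, the level of rln3 in PC input, 62.3% of loci had counts in none of the PC IP libraries.

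**Figure D3:**
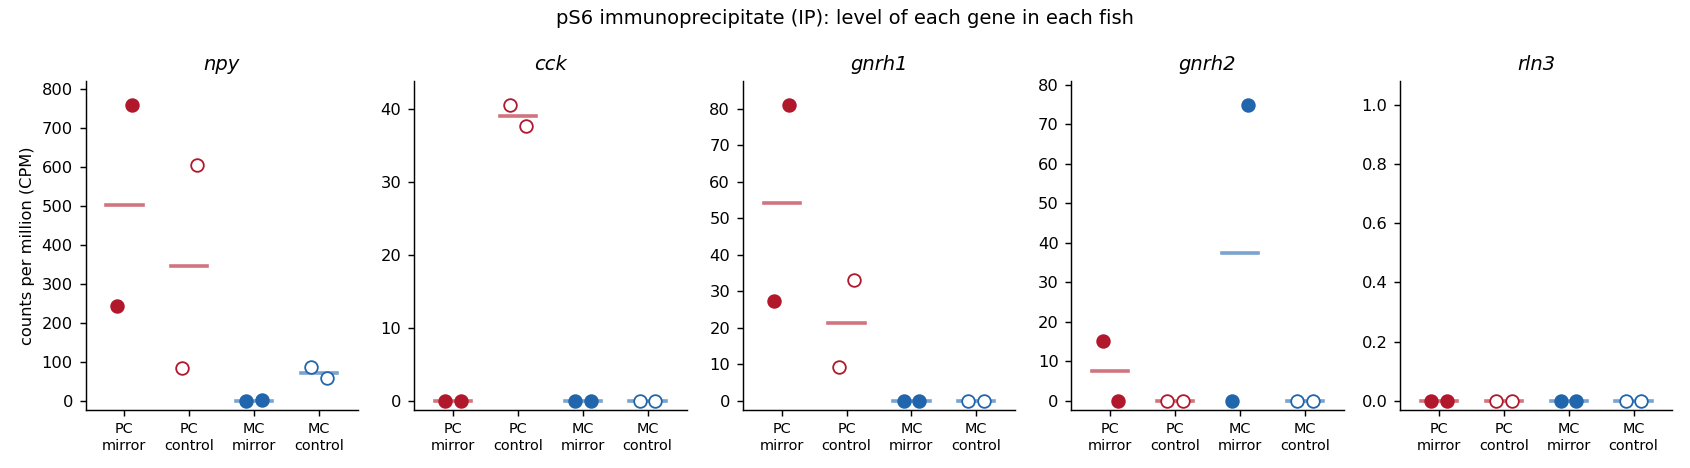
Level of each gene in the pS6 IP library of each fish, in CPM on linear axes that differ between panels. Each point is 1 fish, filled for mirror and open for control, and bars are group means (n = 2); gnrh1 has counts in the 4 PC fish alone, cck in the PC control fish alone, and rln3 in none.

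**Figure D4:**
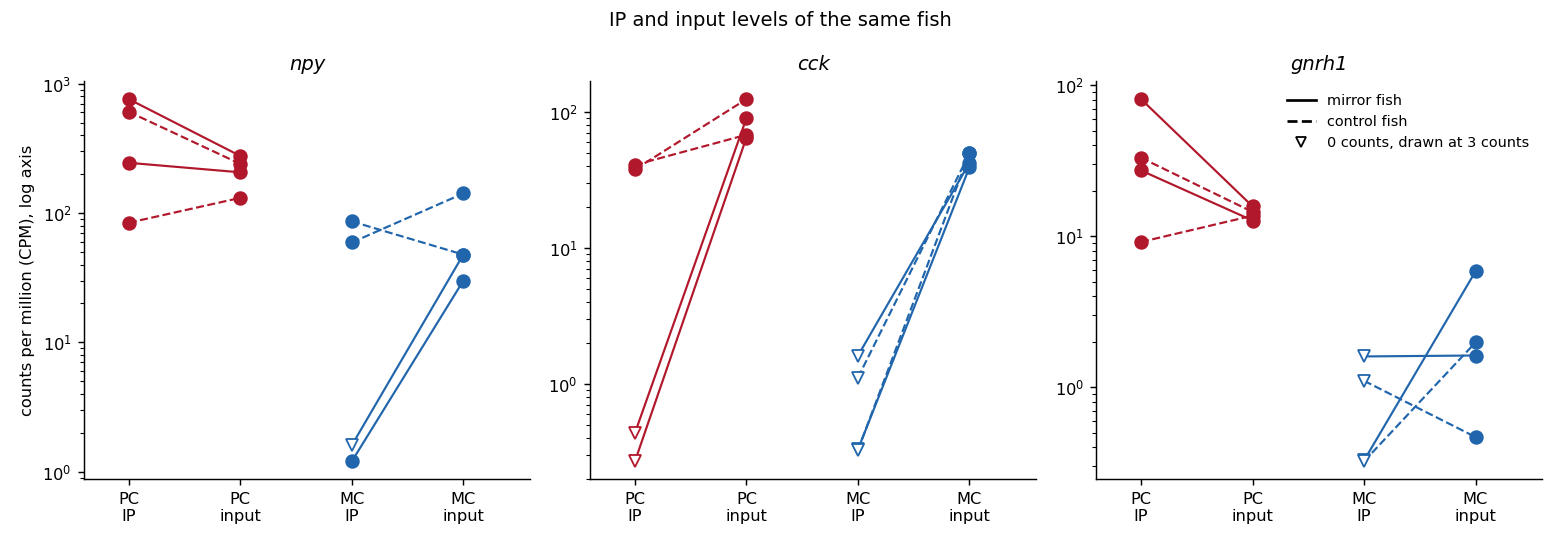
IP and input levels of npy, cck and gnrh1 in the same fish, joined by a line (CPM, log axis, solid for mirror and dashed for control). Open triangles are libraries with 0 counts, drawn at the level of 3 counts; npy and gnrh1 lie higher in IP than in input in 3 of 4 PC fish, and cck lower in all fish.

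**Figure D5:**
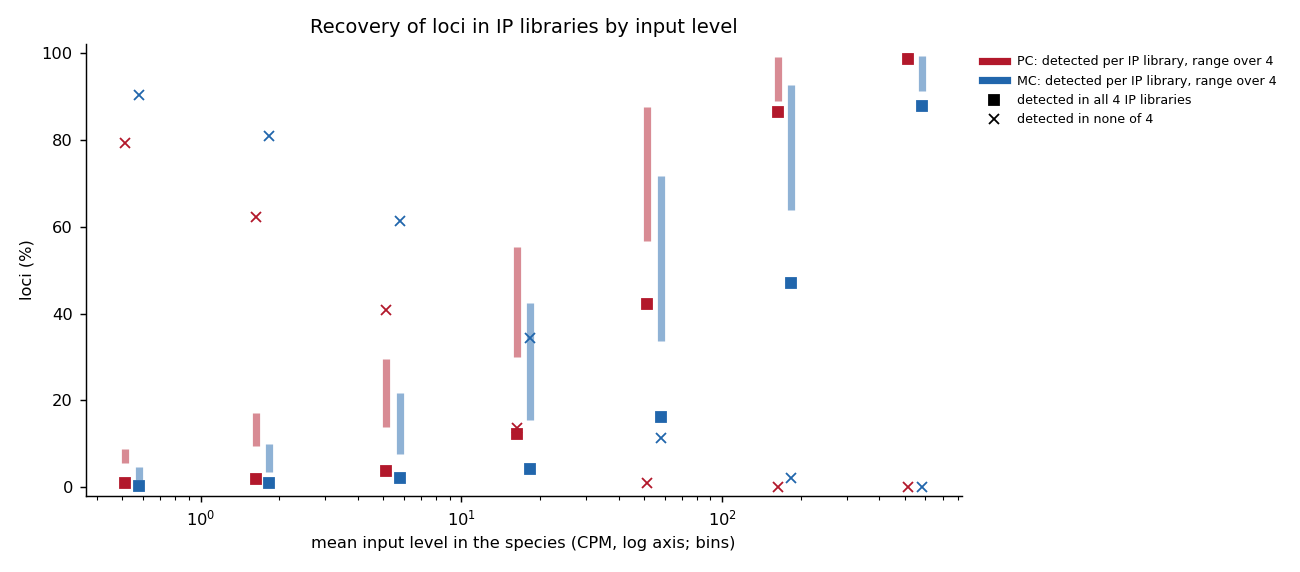
Share of loci with counts in IP (y axis, %) by their mean input level in the same species (x axis, CPM, log scale, bins). Bars give the range over the 4 IP libraries of a species, squares the share in all 4 and crosses the share in none; at 30 to 100 CPM the bars span 56.8% to 87.6% in PC and 33.6% to 71.7% in MC.

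Whether IP enrichment differed between the species was tested as PC minus MC of the IP to input log2 fold change. Of 29597 loci 0.0372% were called (11, all higher in PC), and the median was 0.92. The difference for npy was 4.35 ± 1.23 on the log2 scale (SE, edgeR), with an unadjusted p of 0.00424 and an adjusted p of 0.369. For gnrh1 the unadjusted edgeR p was 0.00221 and the adjusted p 0.369, with no fold because of the MC libraries at 0. None of the 5 genes was called, but cck, gnrh2 and rln3 had groups at 0 that left the fit unable to test them. For npy, fits of 1 batch, with main effects plus 1 interaction in place of 1 level per group, gave 1.16 for batch a and 3.28 for batch b. Neither was called, and these values do not split the 4.35 by batch. Fits that left out 1 fish gave 3.28 (without MC mirror fish 9) to 6.55 (without MC mirror fish 21), and DESeq2 gave 4.27 with an adjusted p of 0.0189. Of the microglial markers, csf1r and mpeg1 had 0 counts in every IP library. In IP, srgn averaged 303 CPM in PC and 0.647 CPM in MC, and cd74 84.6 CPM in PC and 17.3 CPM in MC. Among all gene lists srgn alone was called for this species difference, higher in PC (edgeR adjusted p = 0.0367). No fold is given for srgn because a group was at 0. The microglial list summed to 205 to 548 CPM in PC and 0 to 38.3 CPM in MC IP libraries. The part of these markers in the values above was not tested.

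None of the 5 genes passed the test between mirror and control fish in total RNA, where rln3, at 0 in all MC inputs, could not be tested. In the inputs 0.0104% of 28742 loci (3) were called, with a median log2 fold change of -0.08. The log2 fold change was -0.29 ± 0.31 for npy, -0.24 ± 0.22 for cck and 0.82 ± 0.47 for gnrh1 (SE, edgeR adjusted p = 1 for each). Leaving out 1 fish gave -0.44 (without PC control fish 11) to -0.013 (without PC control fish 24) for cck and 0.41 (without MC mirror fish 21) to 1.27 (without PC control fish 11) for gnrh1. For npy, mirror fish averaged 140 ± 121 CPM and control fish 140 ± 78.7 CPM (SD, n = 4 each), with complete overlap. For gnrh2 the 2 MC mirror inputs had 0 counts, against 41 counts in the 2 MC control inputs, a level at least 14.1-fold lower; PC fish overlapped between conditions. The unadjusted edgeR p for gnrh2 was 0.00398 and the adjusted p 0.952. The processing enzymes, the other precursors and every marker list had 0 members called.

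The effect of the mirror on IP enrichment, the comparison the series sets out to make, called 0 of 29597 loci (0%; 1556 at an unadjusted p under 0.05, and 1821 by DESeq2 after adjustment). Its difference between the species also called 0 loci (0%; 1711 unadjusted, and 1992 by DESeq2). For npy the mirror effect was -3.002 ± 1.22 on the log2 scale (SE, edgeR adjusted p = 0.811). Fits of 1 batch gave -0.68 for batch a and 0.63 for batch b. They used main effects plus 1 interaction in place of 1 level per group. Their values therefore do not split the -3.002 by batch, and their signs cannot be set against it. In the main form the effect was -2.09 without MC mirror fish 9 and -5.35 without MC mirror fish 21, the ends of the range over fits leaving out 1 fish. The PC minus MC difference of that effect was 6.65 ± 2.50 (SE, edgeR adjusted p = 0.677). It was 4.85 without MC mirror fish 9, 11.4 without MC mirror fish 21 and 4.02 without both MC fish of batch a. Behind it, pooled npy in IP was 0.998 CPM in MC mirror (11 counts) against 65.4 CPM in MC control (783 counts). In PC it was 564 CPM in mirror (10204 counts, 8510 of them in fish 23) against 282 CPM in control (3165 counts). The pooled inputs of mirror and control fish were 38.7 and 93.5 CPM in MC and 243 and 189 CPM in PC. Of all libraries, the IP library of MC mirror fish 9 was the shallowest, where its input level of npy would have given 89.5 counts. The remaining 4 genes were each at 0 in whole groups, with edgeR adjusted p of 0.763 for the mirror effect on gnrh2 and 1 for the others. For those others the groups at 0 left the fit unable to test the effect, so the value says nothing about its size.

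The authors' deposited tables of the same 3 questions also called cck in IP against input, but differed in other calls. The authors' deposited table for IP against input lists cck at -5.77 (adjusted p = 0.000369, DESeq2) and rln3 at -2.06 (0.0318), with npy at -0.09 (0.927) and gnrh1 at -0.95 (0.389). The authors' deposited table for the mirror effect on IP lists gnrh2 at 8.28 (adjusted p = 0.0294, DESeq2), cck at -5.57 (0.0576) and npy at 0.14 (0.992). The authors' deposited table for its species difference lists npy at 6.55 (adjusted p = 0.0241, DESeq2) and cck at -7.83 (0.0723). Which group is on top of these fold changes is not stated. By the counts given above, the sign of cck in IP against input is that of IP over input. For the mirror effect, the signs of gnrh2 and cck are those of mirror over control. The gnrh2 row rests on counts in 2 of 8 IP libraries, and the npy row on the 16 values given above.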

How the data were processed

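The authors deposited raw counts per assembled locus in 16 libraries. Per the submitters' processing notes cutadapt, HISAT2, StringTie and DESeq2 were used; the build, tool versions and settings are not named there. A further 3 deposited tables give each locus a p-value and a log2 fold change and were read as DESeq2 output, in which an adjusted p of 100 was read as missing. A locus took the symbol of the annotated gene it matches exactly (class code =).

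From the counts, edgeR 4.0.16 in R 4.3.3 (TMM scaling, filterByExpr, quasi-likelihood F test, two-sided, Benjamini-Hochberg over all loci tested, threshold 0.05) was fitted to the 8 inputs alone (4 groups plus batch) for comparisons in input, and otherwise to all 16 libraries (8 groups plus batch). A contrast averages over the other factors. Alternatives used limma 3.58.1 (voom) and DESeq2 1.42.0. SE is the absolute log2 fold change over the root of F. CPM in the text is per library total. The fits were also run on counts simulated from input levels with a fixed spread. Such counts lack the loss of loci seen in IP, so that run does not vouch for the fits with IP libraries. Input and IP of a number come from the same fish per the labels; their deviations from group means over 856 loci correlated at 0.217 (PC mirror), 0.515 (PC control), 0.0508 (MC mirror) and 0.168 (MC control).

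The members, gene lists and rules were chosen with earlier results of these data known. Beside the 5 genes, the text names list members past the threshold, or up to 3 with the smallest p, and the 3 loci most alike in profile, of which 1 is not reported here. Transcript lengths were not used, so levels are not compared between genes. Duplicate reads were not examined. No sequence of the genes is printed.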

Additional observations from a re-analysis of the deposited data

Results flagged for a closer look

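Of 15 sets of 4 libraries of 1 species and fraction, 3 held a library that stood apart from the other 3 by Dixon's criterion. Chance flags about 1 in 20 sets of continuous values, a rate that does not apply to the 2 sets of gnrh2 below, where 3 libraries at 0 and 1 above it meet the criterion by construction. The input of MC control fish 22 had 141.861 CPM of npy, and the nearest MC input had 47.8 CPM. Without fish 22 the log2 species difference of npy in input was 2.58 (edgeR adjusted p = 1.79e-07). In IP, gnrh2 had 15.1732 CPM in PC mirror fish 12 and 0 in the other 3 PC fish. In MC mirror fish 21 it had 74.9948 CPM in IP and 0 in the input of the same fish, while the other 3 MC IP libraries had 0.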

How the results depend on the processing

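All values are from edgeR unless another tool is named, and the cause of a changed call was not tested. Leaving out 1 fish leaves a group with 1 library, which is then assumed to vary like the other groups. The filter follows the smallest group, so these fits also tested more loci, 37060 to 40991 in place of 28742 in input and 39059 to 42829 in place of 29597 otherwise, and a change in them cannot be put down to the fish alone. Each batch alone was fitted with main effects, plus the interaction with fraction where enrichment was compared between species or conditions. That form does not allow the species difference of the mirror effect, and its values do not split those of the main fit by batch. The fits of abundant loci alone and without both MC fish of batch a were chosen after the data had been seen. Alternatives were run for the 5 genes and the counts of loci, not for the other genes named. The fold changes of npy, cck and gnrh1 kept their direction in each alternative run, except for npy under mirror exposure. The median of all loci for the species difference in input, 0.03, was -0.31 with library totals and -0.26 with all 16 libraries. For mirror against control in input, the log2 fold change of npy was 0.22 in batch a alone. Over the fits leaving out 1 fish that of npy was -0.74 to 0.042 (0.03 without MC control fish 22 and 0.042 without MC mirror fish 21). The mirror effect on IP enrichment of npy was 0.63 in batch b alone. At low counts, calls could not be told from depth: 3 counts in an IP library stand for up to 1.60 CPM.

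For the species difference in input, fitting all 16 libraries gave 1.81 for npy, 0.96 for cck and 3.09 for gnrh1, and adjusted p of 0.722 for gnrh2 and 0.684 for rln3. Batch a alone gave 1.04 for cck, 4.07 for gnrh1 and adjusted p of 0.409 for gnrh2, and batch b alone 2.31 for npy, 1.36 for cck, 2.46 for gnrh1 and adjusted p of 0.488 for gnrh2 and 0.355 for rln3, none of them called. Library totals gave cck 0.93 and rln3 an adjusted p of 0.071, and relative log expression factors rln3 0.0515. Over the fits leaving out 1 fish the adjusted p of rln3 was 0.021 to 0.188. In place of 3000 loci, 0 were called with all 16 libraries, 5918 by DESeq2, 4633 with no filter, 495 in batch a, 0 in batch b and 2676 to 5406 leaving out 1 fish.

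For IP against input, the log2 fold change of npy was -1.81 with the fish as a replicate block, -1.48 by DESeq2, -1.24 with library totals, -1.63 with no filter, -1.54 with no batch term, -0.67 in batch a, -0.59 in batch b, -1.44 without both MC fish of batch a, -1.57 among abundant loci and -2.84 to -1.204 leaving out 1 fish. The adjusted p of cck was 0.192 in batch a, 0.186 in batch b and 0.0566 without both MC fish of batch a. That of gnrh1 was 0.287 with the replicate block, 0.0517 with no filter, 0.351 in batch a, 0.619 in batch b, 0.0677 without both MC fish of batch a and 0.046 to 0.12 leaving out 1 fish. In place of 17095 loci, 181 were called with the block, 9892 with at least 10 counts in 8 libraries, 7231 in batch a, 5291 in batch b, 4 without both MC fish of batch a, 199 among abundant loci and 9582 to 13532 leaving out 1 fish.

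For the species difference of enrichment, in place of 11 loci 26 were called with the replicate block, 136 by limma-voom, where fish was a random effect, 2544 by DESeq2 (npy 4.27, called), 3 with library totals, 28 with no filter, 24 with the stricter filter, 23 with no batch term, 0 in batch a, 0 in batch b, 1 without both MC fish of batch a and 0 to 13 leaving out 1 fish. For mirror against control in input, in place of 3 loci 0 were called with all 16 libraries, 139 by DESeq2, 272 with no filter, 0 with the stricter filter, 0 in batch a, 0 in batch b and 62 to 491 leaving out 1 fish. For the mirror effect on IP enrichment, in place of 0 loci 1821 were called by DESeq2, 2 among abundant loci, 2 with no filter, 4 with the replicate block and 0 to 1 leaving out 1 fish. For its species difference these counts were 1992, 4, 1, 4 and 0 to 1. The replicate block changed no other call, with npy at 4.32 for the species difference of enrichment, -2.85 for the mirror effect and 6.79 for its species difference.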
